A study of Arabidopsis thaliana with 14 samples.

Results

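PTB1 (AT3G01150), PTB2 (AT5G53180), PTB3 (AT1G43190), GRP7 (AT2G21660) and GRP8 (AT4G39260, annotated as CCR1) encode RNA-binding proteins of the hnRNP type in Arabidopsis thaliana. Regions of the histone mark H3K36me3 were counted as belonging to these genes when they overlapped a gene body, taken between the outermost annotated transcript ends, by at least 1 bp. By this rule the 5 genes, of 27444 nuclear protein-coding genes, held 14 of the 52588 regions deposited for 25 °C and 22 of the 50290 deposited for 16 °C. The regions came from chromatin immunoprecipitation followed by sequencing (ChIP-seq), in which DNA bound by the marked histone is recovered with an antibody and sequenced. All groups were the accession Col-0, raised at 16 °C for 5 weeks under short days (light for 8 h, darkness for 16 h). The tissue was rich in shoot apical meristem, with some young leaves attached, at 0.5 g a sample. Plants of the 25 °C groups were taken 1 day after transfer to 25 °C, and plants of the 16 °C groups stayed at 16 °C. There were 4 H3K36me3 samples at 25 °C and 4 at 16 °C, beside 3 samples of total histone H3 at 25 °C and 3 at 16 °C. Replicate A of H3K36me3 at 25 °C has a title naming H3K36me3 and an antibody label naming H3, and its values cannot be looked at apart from the others.

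H3K36me3 is laid down over the bodies of transcribed genes, and in plants it is read by the chromodomain proteins MRG1 and MRG2. Polypyrimidine tract-binding (PTB) proteins bind stretches of pyrimidines in pre-mRNA and change which splice sites are used, and in an adaptor model a reader of H3K36me3 brings PTB to the nascent transcript. Glycine-rich RNA-binding proteins GRP7 and GRP8 are clock-regulated, and both groups are known to control the splicing of their own transcripts through variants that are degraded. The comparison of 25 °C with 16 °C therefore asks how the mark lay over the genes of the splicing regulators themselves after a rise in ambient temperature.

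The replicates of a temperature were pooled in the deposited list, so that no value below has a spread between replicates, no test across replicates could be made, and the depth per sample is unknown. On the nuclear chromosomes there were 52432 regions at 25 °C and 50167 at 16 °C, with a median width of 150 bp in both lists, and they covered 16000080 bp at 25 °C and 11977030 bp at 16 °C. The lowest region had a height, the peak read coverage inside it, of 179.3 at 25 °C and 179.4 at 16 °C. The p-values of both lists imply a mean coverage of 107.2 over the genome, and of the total coverage reckoned from it chloroplast regions held 26.2% at 25 °C and 34.9% at 16 °C. The part of this difference in the values that follow was not tested. The stricter calling level of the closing section left out whole 25 °C regions below a height of 203 and kept the width of the others. All PTB regions of 25 °C were taller than that (lowest 209), so the PTB values could not change under it. The lists hold no expression values, and the tissue label was not checked against marker genes.

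H3K36me3 regions lay over all 5 genes at 25 °C, where 59.5% of nuclear protein-coding genes were marked, that is, overlapped by a region. At 16 °C they lay over all but GRP8, 4 of the 5, where 56.0% of all genes were marked. The same 4 were marked at both temperatures (50.2% of all genes). The 3 PTB genes together had 51.4% of their sequence inside regions at 25 °C, against 37.5% at 16 °C, whereas GRP7 and GRP8 together had 10.4% at 25 °C, against 16.0% at 16 °C. The covered percent, the share of a gene body lying inside regions, was larger at 25 °C in the 3 PTB genes and GRP8 and smaller in GRP7. Of all genes 47.3% had a larger and 17.2% a smaller covered percent at 25 °C, so larger values outnumbered smaller ones there too, and the count over 5 genes is not a result particular to them. A change of at least 10 percentage points upward was found in PTB1 and PTB2 (24.2% of all genes) and downward in GRP7 (3.64% of all genes). Without regions narrower than 100 bp, PTB1 changed by 7.22 and GRP7 by -8.82 percentage points, so that PTB2 alone passed 10. With only regions wider than 150 bp they changed by 7.54 and -8.62, and PTB2 and PTB3 (11.004) passed 10. Mean cover over all genes was 18.7% at 25 °C and 14.0% at 16 °C.

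**Figure D1:**
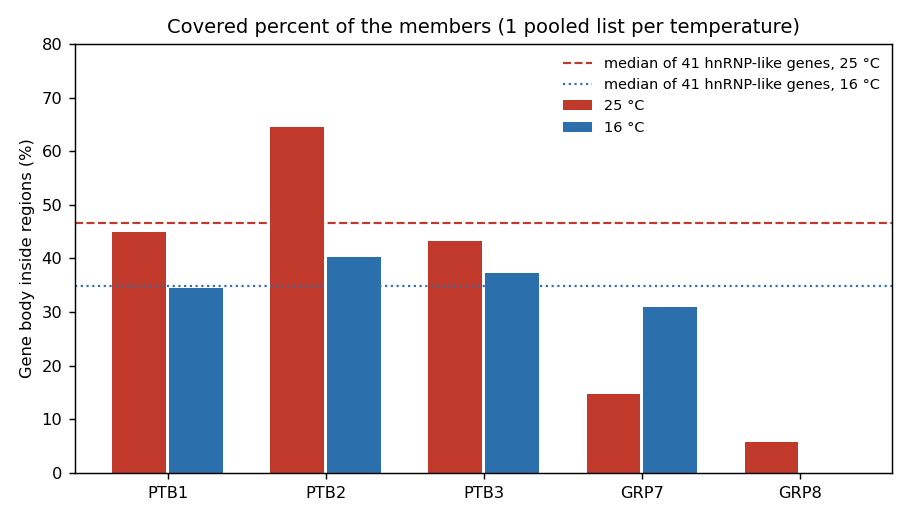
Percent of each gene body inside H3K36me3 regions at 25 °C (red bars, left) and 16 °C (blue bars, right), 1 pooled list per temperature and so without error bars; the horizontal lines are the medians of 41 other hnRNP-like genes. PTB2 reached 64.5% at 25 °C against 40.3% at 16 °C, GRP7 had 14.7% against 31.0%, and GRP8 had no region at 16 °C.

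Together the PTB genes held 11 regions at 25 °C and 18 at 16 °C, PTB1 alone having more at 25 °C, and the widest region of each PTB gene was wider at 25 °C. Fewer regions at 25 °C were found in PTB2, PTB3 and GRP7 (22.6% of all genes), and fewer regions together with a larger cover in PTB2 and PTB3 (11.9% of all genes). The widest region was wider at 25 °C in 4 of the 5 genes (45.1% of all genes) and the tallest was taller in 4 of the 5 (45.3% of all genes), GRP7 being the exception both times. GRP8 counts among the 4 only because it had no region at 16 °C to compare with. A region wider than 1000 bp lay over PTB2 and PTB3 at 25 °C (11.1% of all genes) and over none of the 5 genes at 16 °C (4.22% of all genes).

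**Figure D2:**
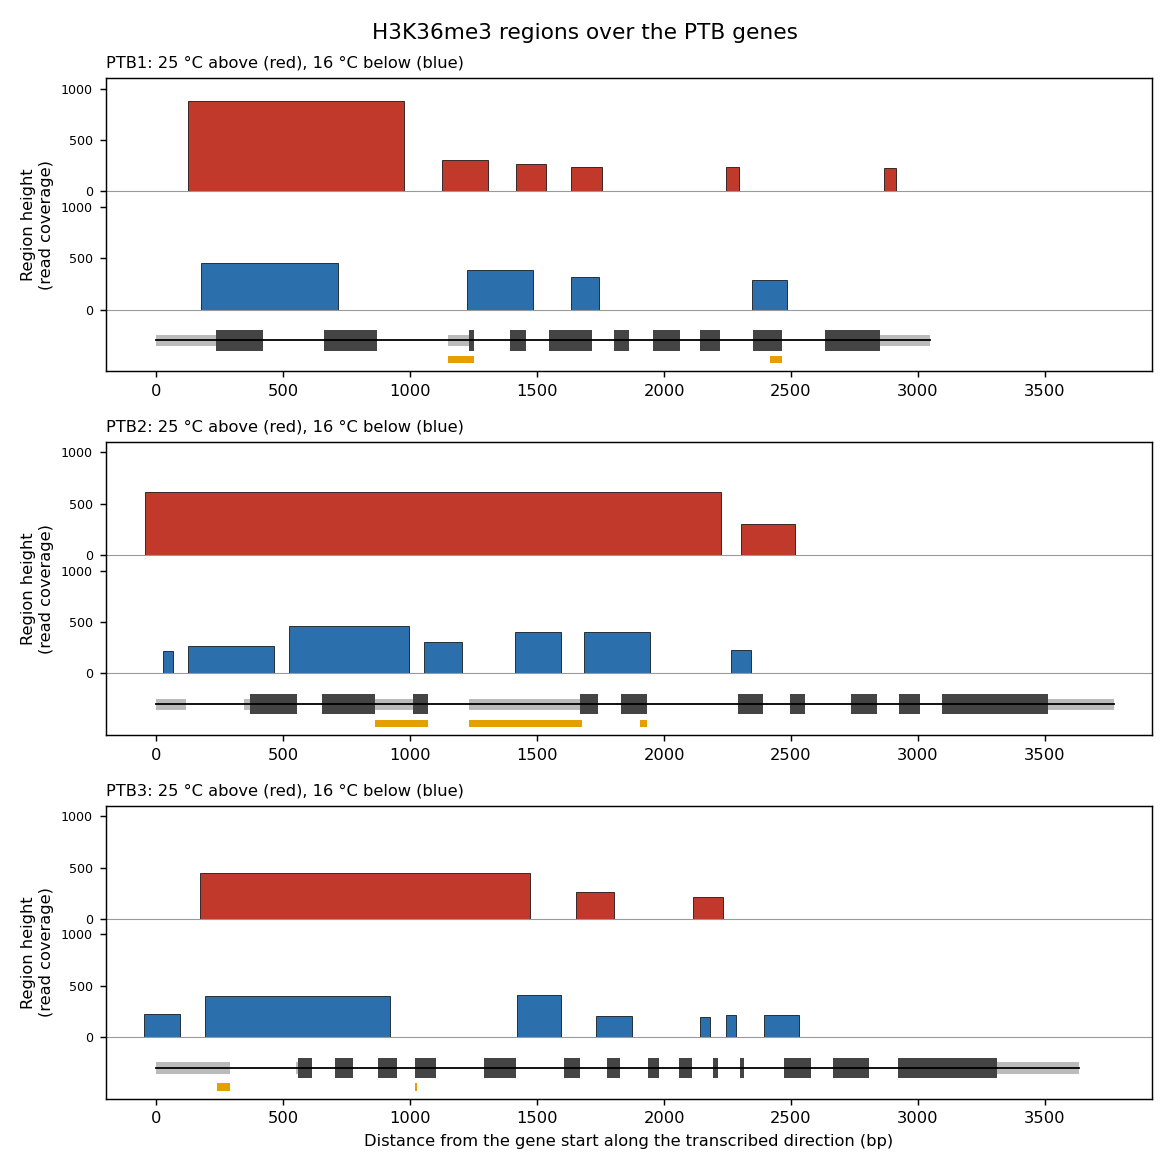
Each box is 1 deposited region over PTB1, PTB2 or PTB3, drawn from its start to its end in bp from the gene start, with its height in read coverage as the box height; red boxes are 25 °C, blue boxes 16 °C. Below them, thick dark blocks are coding sequence, thin grey blocks other exon sequence and orange bars alternative segments; in PTB2 the region of 2270 bp at 25 °C overlaps 6 regions of 16 °C.

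PTB1, a regulator of alternative splicing in Arabidopsis, lies on the plus strand of chromosome 3 from 51496 to 54544 (TAIR10), a body of 3049 bp with 4 annotated transcripts. Regions covered 44.9% of it at 25 °C and 34.4% at 16 °C, a change of 10.5 percentage points. At 25 °C it held 6 regions, at 125 to 975, 1125 to 1305, 1415 to 1535, 1635 to 1755, 2245 to 2295 and 2865 to 2915 bp from the gene start. At 16 °C it held 4, at 175 to 715, 1225 to 1485, 1635 to 1745 and 2345 to 2485 bp. The first region was thus the widest in both lists, and the 25 °C one began 50 bp earlier and ended 260 bp later. It had a height of 876 and a −log10 p of 467 at 25 °C, against a height of 452 and a −log10 p of 135 at 16 °C, whereas the second region was lower at 25 °C (305) than at 16 °C (388). The other 4 regions of 25 °C had heights of 228 to 269, and the other 2 of 16 °C had 315 and 290. The gain lay 5′ of the midpoint of the gene, where 74.7% was covered at 25 °C against 52.5% at 16 °C, while the 3′ side had 15.1% at 25 °C and 16.4% at 16 °C. Of the sequence covered at 16 °C, 76.2% was also covered at 25 °C. With only the regions above the median −log10 p of each list the sign of the PTB1 change turned (-0.66 percentage points), since 2 of its 6 regions at 25 °C and 4 of 4 at 16 °C were then left. The last 21 bp of the gene overlap the end of AT3G01160, a limit that touches none of these regions.

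The stretch by which the first PTB1 region was longer at its 3′ side at 25 °C, chr3:52211-52470, plus strand, is shown because it lay wholly inside a region at 25 °C and outside every region at 16 °C. The sequence is from RefSeq TAIR10.1, 5′ to 3′, and capitals mark the exon.
PTB1 extension: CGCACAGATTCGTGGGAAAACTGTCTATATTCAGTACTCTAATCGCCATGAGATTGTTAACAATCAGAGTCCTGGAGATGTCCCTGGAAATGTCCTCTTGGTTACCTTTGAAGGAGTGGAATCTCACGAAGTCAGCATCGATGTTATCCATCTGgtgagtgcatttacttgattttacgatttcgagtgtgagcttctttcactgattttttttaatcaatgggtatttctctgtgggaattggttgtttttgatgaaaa

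PTB2, the closest relative of PTB1 in this family with 68.9% identity of the aligned coding sequences, lies on the minus strand of chromosome 5 from 21568131 to 21571904, a body of 3774 bp with 6 annotated transcripts. Over the whole gene body it had the largest change of the 5 genes, with 64.5% inside regions at 25 °C against 40.3% at 16 °C (24.2 percentage points). In the first 1000 bp PTB2 changed by 15 and PTB1 by 31 percentage points. At 25 °C a single region of 2270 bp, from -46 to 2224 bp, with a height of 618 and a −log10 p of 250, was followed by one of 210 bp at 2304 to 2514 bp with a height of 308. At 16 °C there were 7 regions of 40 to 470 bp, at 24 to 64, 124 to 464, 524 to 994, 1054 to 1204, 1414 to 1594, 1684 to 1944 and 2264 to 2344 bp. Their heights were 213, 271, 460, 306, 402, 403 and 225, all below that of the wide region. The wide region overlapped 6 of them, and the widest region was 4.83 times as wide at 25 °C (2270 bp) as at 16 °C (470 bp). The 5′ side of the PTB2 midpoint lay wholly inside (100%) at 25 °C, against 73.3% at 16 °C, the 3′ side had 29.0% at 25 °C against 7.26% at 16 °C, and 97.4% of what was covered at 16 °C was covered at 25 °C too. At 25 °C a smaller share of the body was covered in 97.7% of all genes, and at 16 °C in 90.6%.

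The longest stretch of the wide PTB2 region that lay outside every region at 16 °C, chr5:21569681-21569960 at its 3′ side, is intron and is shown on the minus strand, 5′ to 3′, with no capitals because it holds no exon base in any annotated transcript (RefSeq TAIR10.1).
PTB2 gap at 16 °C: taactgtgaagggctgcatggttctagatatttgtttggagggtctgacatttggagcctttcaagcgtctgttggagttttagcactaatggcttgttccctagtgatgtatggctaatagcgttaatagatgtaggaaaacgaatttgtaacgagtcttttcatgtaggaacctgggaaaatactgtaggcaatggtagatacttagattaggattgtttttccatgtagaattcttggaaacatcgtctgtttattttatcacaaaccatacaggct

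PTB3, the more distant PTB relative (60.8% coding identity with PTB1 and 61.8% with PTB2), lies on the minus strand of chromosome 1 from 16275108 to 16278742, a body of 3635 bp with 3 annotated transcripts. It had a cover of 43.2% at 25 °C, against 37.2% at 16 °C, a change of 6.00 percentage points. At 25 °C it held 3 regions, at 172 to 1472, 1652 to 1802 and 2112 to 2232 bp, with heights of 447, 261 and 209. At 16 °C it held 7, at -48 to 92, 192 to 922, 1422 to 1592, 1732 to 1872, 2142 to 2182, 2242 to 2282 and 2392 to 2532 bp, with heights of 225, 405, 413, 205, 197, 219 and 220. The wide region of 25 °C, of 1300 bp, thus overlapped the 730 bp region and part of the next one at 16 °C. Cover was larger at 25 °C 5′ of the midpoint of the gene (79.8% against 59.3% at 16 °C) and smaller 3′ of it (6.60% against 15.1%). Only 65.8% of the sequence covered at 16 °C was covered at 25 °C, the lowest share among the PTB genes. PTB3 also differed from its relatives at the gene start, where a region of 16 °C had no overlap with any region of 25 °C.

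The window chr1:16277593-16277792 of PTB3 lay inside a region only at 25 °C and holds a pair of alternative acceptor sites. It is given on the minus strand, 5′ to 3′, from RefSeq TAIR10.1, with the 6 bases that are exon in 1 annotated transcript and intron in another in capitals.
PTB3 alternative acceptor: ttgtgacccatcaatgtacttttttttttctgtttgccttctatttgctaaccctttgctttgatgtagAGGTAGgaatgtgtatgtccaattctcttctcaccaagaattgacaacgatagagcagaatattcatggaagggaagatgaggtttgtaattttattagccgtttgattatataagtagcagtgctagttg

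GRP7, which feeds back on the splicing of its own transcript and promotes flowering, lies on the minus strand of chromosome 2 from 9265084 to 9266557, a body of 1474 bp with 2 annotated transcripts. Its cover was 14.7% at 25 °C against 31.0% at 16 °C, a change of -16.3 percentage points, and 1.45% of all genes had a smaller (more negative) change. At 25 °C it held a region at -3 to 147 bp with a height of 260, in the 5′ UTR, and one of 70 bp at 967 to 1037 bp with a height of 202, in coding sequence. At 16 °C it held 4 regions, at -123 to 127, 707 to 797, 857 to 1007 and 1117 to 1207 bp, with heights of 217, 225, 315 and 228. The region at the gene start was therefore taller at 25 °C, while the last exon held 1 region at 25 °C and 3 at 16 °C, the tallest of the gene among them. Of the sequence covered at 16 °C, 36.5% was covered at 25 °C. The 3′ UTR had 0% inside regions at 25 °C and 22.9% at 16 °C. The tallest had a −log10 p of 35.5 at 25 °C, below the median of that list (48.3), and of 58.7 at 16 °C, above the median of that list (41.1).

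The tallest GRP7 region, found at 16 °C at chr2:9265551-9265700, lies in the glycine-rich coding stretch of the last exon, with 26.7% of it covered at 25 °C and 100% at 16 °C. It is shown on the minus strand, 5′ to 3′, from RefSeq TAIR10.1, with capitals for the 36 bases that belong to the segment that is intron in the other transcript.
GRP7 tallest region: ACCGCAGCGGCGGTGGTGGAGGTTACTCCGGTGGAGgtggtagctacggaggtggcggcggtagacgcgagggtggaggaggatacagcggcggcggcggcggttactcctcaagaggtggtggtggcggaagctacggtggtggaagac

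GRP8, the paralogue of GRP7 with 78.6% coding identity and a partner in the same splicing feedback, lies on the minus strand of chromosome 4 from 18273829 to 18275216, a body of 1388 bp with 4 annotated transcripts. It held 1 region at 25 °C and none at 16 °C. The region, at 516 to 596 bp, was 80 bp wide with a height of 195 and a −log10 p of 14.0, and lay wholly in the intron between both exons. Only 4.40% of the 25 °C regions were lower, so the region stood close to the calling level. It covered 5.76% of the gene, and GRP8 had no region at either temperature once regions narrower than 100 bp were left out. Genes marked at 25 °C and not at 16 °C made up 9.32% of the annotation.

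The sequence of the GRP8 region, chr4:18274621-18274700, minus strand, 5′ to 3′, from RefSeq TAIR10.1, has no exon base and therefore no capitals.
GRP8 region: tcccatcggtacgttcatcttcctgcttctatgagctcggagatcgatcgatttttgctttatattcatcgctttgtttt

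**Figure D3:**
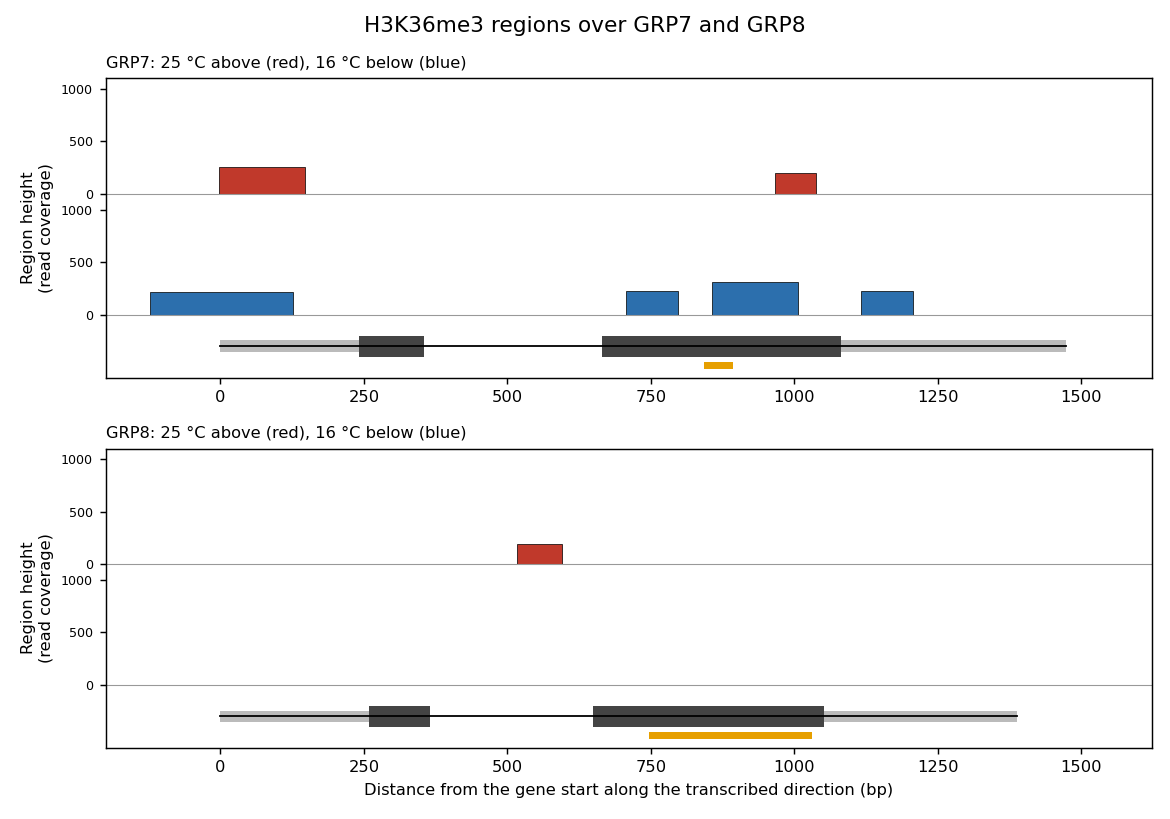
Regions over GRP7 and GRP8, with 25 °C in red above 16 °C in blue, on the same height scale (read coverage) as the map of the PTB genes; dark blocks are coding sequence, grey blocks UTR exons and orange bars alternative segments. GRP7 held 2 regions at 25 °C and 4 at 16 °C, and GRP8 held 1 at 25 °C with a height of 195 and none at 16 °C.

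GRP7 and GRP8 are short genes, and cover differed with gene length. Among genes within 20% of the length of GRP7, 48.0% held a region at 25 °C against 43.3% at 16 °C, and for GRP8 these shares were 44.3% at 25 °C and 39.1% at 16 °C, with a median cover of 0% at both temperatures. Genes within 20% of the PTB gene lengths were marked in 78.0% to 81.4% of cases at 25 °C and in 75.3% to 78.8% at 16 °C. Their median cover was 24.3% to 25.7% at 25 °C and 15.8% to 17.3% at 16 °C, below the 43.2% to 64.5% at 25 °C and the 34.4% to 40.3% at 16 °C of the PTB genes. Every 50 bp window of the 5 genes occurred once in the genome, so reads of that length from these paralogues have different sequences.

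The regions of both lists overlapped over most, but not all, of the members. At 25 °C 11 of 14 regions were overlapped by a region of 16 °C, where 51.0% of all nuclear regions of 25 °C were, and at 16 °C 16 of 22 were overlapped by a region of 25 °C, against 64.4% of all nuclear regions. The unmatched regions of 25 °C were the last pair of PTB1 and the GRP8 region. Those of 16 °C were the last region of PTB1, the first, the sixth and the last of PTB3, and the regions of GRP7 at 707 to 797 and 1117 to 1207 bp.

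Both families are known to act on their own splicing, so the position of the mark over alternative segments, stretches that are exon in 1 annotated transcript and intron in another, was followed next. The PTB genes hold 7 such segments of 887 bp in all, of which 94.7% was covered at 25 °C against 54.0% at 16 °C. Over the segments of all genes the cover was 27.5% at 25 °C and 21.0% at 16 °C. PTB2 holds 684 of the 887 bp, all inside its 1 region of 2270 bp at 25 °C, so the pooled value rests largely on that region. Of the 7, 6 were touched by a region at each temperature (35.0% of all segments at 25 °C and 28.3% at 16 °C), and 6 lay wholly inside a region at 25 °C and 3 at 16 °C (18.5% of all segments at 25 °C and 12.8% at 16 °C). The 2 segments of GRP7 and GRP8, 336 bp together, had a cover of 0% at 25 °C against 10.7% at 16 °C. Both lie in coding sequence of the last exon, not in the intron before it. Whether any segment, of the PTB or the GRP genes, belongs to the variants of this self-control was not tested. Segments of one gene share its regions and are not independent of each other.

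In PTB1 the cassette exon of 102 bp at 1149 to 1251 bp had a cover of 100% at 25 °C against 25.5% at 16 °C, while an alternative coding stretch of 47 bp at 2416 to 2463 bp had 0% at 25 °C and 100% at 16 °C. In PTB2 all 3 segments lay inside regions at 25 °C, the one of 210 bp at 861 to 1071 bp against 71.4% at 16 °C, the one of 446 bp at 1230 to 1676 bp against 40.4%, and the one of 28 bp at 1906 to 1934 bp against 100%. In PTB3 the 6 bp between both acceptors had 100% at 25 °C and 0% at 16 °C, and the 48 bp segment in the 5′ UTR had 100% at both. The alternative segment of 51 bp in GRP7 had 0% at 25 °C against 70.6% at 16 °C. That of 285 bp in GRP8 lay outside the regions at both temperatures.

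The cassette exons of PTB1 (102 bp) and PTB2 (58 bp) are absent from some annotated transcripts, and the 3′ splice sites in front of them are shown because PTB proteins bind pyrimidines. The windows are chr3:52621-52650, plus strand, for PTB1 and chr5:21570886-21570915, minus strand, for PTB2 (RefSeq TAIR10.1, 5′ to 3′), with the first 6 exon bases in capitals.
PTB1 acceptor: attaatgaaatgctcgaatcacagATGTTG
PTB2 acceptor: acgtgaatgtaaatggatcagcagGGCCAT
Of the 24 intron bases in front of the exon, 10 were C or T in PTB1 and 8 in PTB2. In PTB2 these 24 bases are intron only in some annotated transcripts, since they lie in the alternative segment at 861 to 1071 bp and are exon in another. Coding sequence of PTB2 begins at 1010 bp, just before the start of the 58 bp exon at 1013 bp. Over 126851 annotated introns the median was 14, and 4.97% had fewer than PTB1 and 0.964% fewer than PTB2. The PTB1 exon had 102 of its bases inside regions at 25 °C and 26 at 16 °C, and the PTB2 exon had 58 at 25 °C and 17 at 16 °C. A count of pyrimidines is a description of the letters and says nothing of binding.

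By gene part, the 5′ UTRs of the PTB genes had 77.9% inside regions at 25 °C against 47.5% at 16 °C, the introns 57.3% against 43.3%, and the coding sequence 44.6% against 35.0%. In the 5′ UTR of PTB3 the order of the temperatures was the opposite, with 41.9% at 25 °C against 66.2% at 16 °C. The 5′ UTR class of PTB1 also held exon sequence between coding exons, at 1149 to 1233 bp. That of PTB2 did so at 861 to 1010 and 1230 to 1670 bp. These stretches belong to the alternative segments above, so the 77.9% and 47.5% count bases that the segment values also count. Over all genes the cover was 29.8% of intron bases at 25 °C and 21.7% at 16 °C, 27.2% and 22.1% of 5′ UTR bases, and 23.0% and 16.6% of coding bases. The 3′ UTRs of PTB2 and PTB3 held no region at either temperature, and that of PTB1 had 25.0% at 25 °C, in a region of 50 bp, against 0% at 16 °C. In GRP7 the coding sequence had 13.2% at 25 °C and 45.2% at 16 °C, the 5′ UTR 61.0% and 52.7%, and the intron 0% at both. In GRP8 only the intron was covered, over 28.3% at 25 °C.

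**Figure D4:**
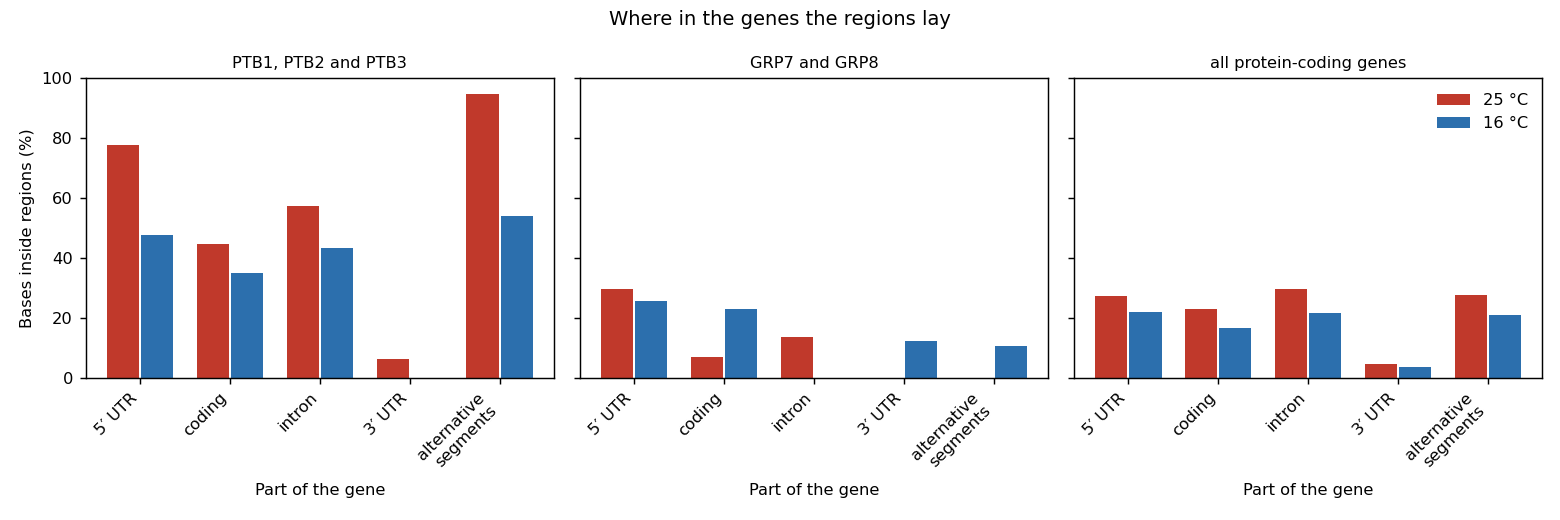
Percent of bases inside regions at 25 °C (red, left of each pair) and 16 °C (blue) in the 5′ UTR, coding sequence, introns, 3′ UTR and alternative segments of the PTB genes, of GRP7 and GRP8, and of all protein-coding genes. Alternative segments of the PTB genes reached 94.7% at 25 °C against 54.0% at 16 °C, and those of GRP7 and GRP8 had 0% against 10.7%. The 5′ UTR bars of the PTB genes include part of the alternative segments of PTB1 and PTB2.

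The members were then set beside 41 other genes for hnRNP-like proteins. All 41 were marked at both temperatures (50.2% of all genes). Cover was larger at 25 °C in 38 (47.3% of all genes) and smaller in 3 (17.2% of all genes). By at least 10 percentage points it was larger in 15 (24.2% of all genes) and smaller in 1 (3.64% of all genes). The median cover of the list was 46.6% at 25 °C and 34.8% at 16 °C, and its median change was 8.89 percentage points. The median change of all genes was 0, where 9740 of the 27444 genes had no change, against 0 of the 41. The median length was 3247 bp in the list and 2078 bp over all genes. All genes were not matched to the list in length or in being marked, so whether these contrasts are particular to hnRNP-like genes was not tested. Of the 46 genes with the members included, PTB2 ranked 1 at 25 °C and 14 at 16 °C in cover, PTB1 ranked 24 at both, and PTB3 ranked 27 at 25 °C and 17 at 16 °C. GRP7 ranked 45 at 25 °C and 29 at 16 °C, and GRP8 ranked 46 at both. In change, GRP7 ranked last of the 46. The other 8 genes for glycine-rich proteins ran from 25.3% to 60.2% in cover at 25 °C and from 18.0% to 39.4% at 16 °C. GRP7 and GRP8 thus lay below all of them at 25 °C. These 8 genes are longer, at 1764 to 4489 bp, than GRP7 (1474 bp) and GRP8 (1388 bp). Among genes within 20% of the length of GRP7, 67.7% had less cover than GRP7 at 25 °C. For GRP8 this share was 61.7%.

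**Figure D5:**
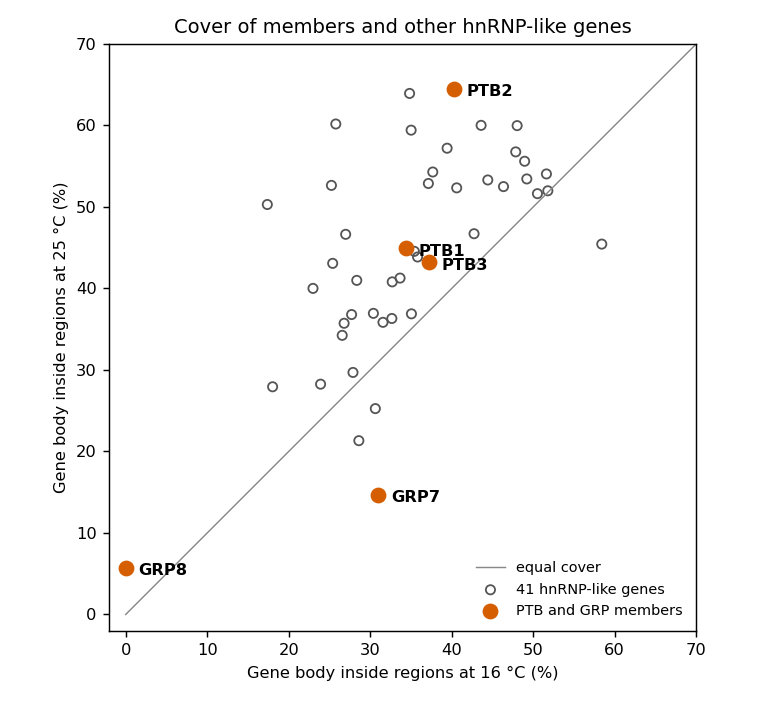
Covered percent at 25 °C (vertical axis) against 16 °C (horizontal axis) for the 5 members (filled) and 41 other hnRNP-like genes (open), with the line of equal cover. PTB2 stands highest at 64.5% on the 25 °C axis, PTB1 and PTB3 lie among the other genes, and GRP7 lies below the line at 14.7% against 31.0% at 16 °C.

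Within that list, BTR1L, a KH-domain protein, and UBA2C, a UBP1-associated protein, had the highest mean cover, with 59.98% at 25 °C and 48.03% at 16 °C for BTR1L and 54.1% and 51.6% for UBA2C. RZ-1B, a glycine-rich zinc-finger protein, had 60.2% at 25 °C and 25.8% at 16 °C, and LIF2, a Q-type hnRNP that interacts with LHP1, had 50.3% and 17.4%, the largest upward changes. The largest downward changes were those of RBP45B, of the oligouridylate-binding group, with 45.4% at 25 °C and 58.4% at 16 °C, and AT1G17640, of the A/B type, with 21.3% and 28.6%. GRP7, at -16.3 percentage points, lay beyond RBP45B at -13.0.

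The genes of the H3K36me3 readers were measured in the same lists. MRG1 had a cover of 49.7% at 25 °C against 25.3% at 16 °C, a change of 24.5 percentage points, close to the 24.2 of PTB2. MRG2 had 37.3% at 25 °C and 32.0% at 16 °C, a change of 5.26 percentage points, near the 6.00 of PTB3. Of all genes, 94.9% had a smaller change than MRG1 and 65.5% a smaller one than MRG2. The widest region of MRG2 was narrower at 25 °C (520 bp against 610 bp), and its tallest was lower (362 against 468). In each PTB gene both were larger at 25 °C. The tallest region of MRG1 had a height of 670 at 25 °C, whereas that of 16 °C, 747, lay mostly in the neighbouring gene. By the lists that the study made by RNA sequencing, PTB1 and PTB2 are listed as differentially spliced. PTB3, GRP7, GRP8, MRG1 and MRG2 are not on that list. None of these genes, PTB1 and PTB2 included, is among the differentially expressed genes of the first day. The study took splicing events from any of its sampled days at 25 °C, whereas the regions are of the first day. The share of all genes on either list was not computed, and a link between regions and splicing was not tested.

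The likeness of whole patterns was measured as the mean absolute difference in covered share over 20 equal bins of the gene body in both lists, 40 values a gene, where 0 is an identical pattern. The genes nearest to PTB1 were AGD9 (0.124) and AT4G19500 (0.138), those nearest to PTB2 were IAA12 (0.0838) and AT1G19880 (0.0844), and those nearest to PTB3 were AGD9 (0.0997) and DDI1 (0.112). FKBP15-2 (0.143) and AT1G24545 (0.156) were nearest to GRP7. For GRP8, whose pattern is 1 short region, WAT1 (0.00146) and AT5G65170 (0.00276) were nearest. Among the members, PTB1 and PTB3 were nearer to each other (0.172) than PTB2 was to PTB3 (0.199) or to PTB1 (0.266), and GRP7 and GRP8 differed by 0.257. Of all genes, 0.128% were nearer to PTB1 than PTB3 was, and 15.3% were nearer to PTB1 than PTB2 was. Nearer to PTB2 than PTB3 was were 6.29%. As many as 48.8% were nearer to GRP7 than GRP8 was, so that pair was not close by this measure. GRP7 and GRP8 shared no covered bin, so every gene without a region in either list was nearer to GRP7 than GRP8 was. The 48.8% includes such genes. Among the PTB pairs, the one with the highest coding identity, PTB1 and PTB2, thus had the largest difference in pattern.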

How the data were processed

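H3K36me3 ChIP-seq of Col-0 shoot tissue was analysed from the deposited region lists, 1 for each temperature. Reads had been aligned by the authors to TAIR10 (Bowtie2 in the submitters' processing notes, Bowtie in the study's methods, no version given) and extended to 150 bp, and regions had been called with Dpeak of DANPOS2 on pooled replicates. No source used here states whether the H3 samples served as background. Each deposited region has a start, an end, a width in bp, a height and a total, which are signal (read coverage) values the authors computed, and a −log10 p for that height, as deposited. The samples' own depth is unknown, so no interval could be given.

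Gene models were those of RefSeq TAIR10.1, whose nuclear chromosome lengths equal those of TAIR10. Coordinates of regions are as deposited, in steps of 10 bp, and distances run from the gene start in the transcribed direction. Changes are 25 °C minus 16 °C. No test was made, since there is 1 pooled list per temperature. The members, the gene lists and the alternatives were chosen with earlier results of these data known. The hnRNP-like list was drawn up from knowledge of plant proteins. All 5 members were named, and from that list the 2 with the highest mean cover, the 2 with the largest upward and the 2 with the largest downward change. MRG1, MRG2 and the 2 genes most like each member in pattern were named too. The sequences shown, the length window of 20% and the pyrimidine counts were chosen after seeing the data. Alternatives left out narrow or weak regions, equalised the lists, or changed the gene body or what counts as shared. Added after seeing the data were a stricter calling level at 25 °C, scaled by the nuclear shares of signal, and regions wider than 150 bp only. The calculations were tested on simulated regions. Python 3.11.15, numpy 2.4.6, pandas 2.3.3, Biopython 1.88 and matplotlib 3.10.9 were used.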

Additional observations from a re-analysis of the deposited data

How the results depend on the processing

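No paired analysis was possible because each list pools its replicates, and for the same reason no replicate could be left out. Of 153 alternative values, 117 moved little (within 1.5-fold of the main value), 35 moved and 1 changed sign. A PTB1 change of 7.22 against 10.5 percentage points thus counted as little. Some of the 117 could not move, such as the 16 °C values where only the 25 °C regions were altered. With the regions above the median −log10 p of each list (48.3 at 25 °C and 41.1 at 16 °C), PTB1 had a change of -0.66 percentage points, 2 of its 6 regions being left at 25 °C and 4 of 4 at 16 °C. The marked members at 25 °C were then 3 (46.9% of all genes), as with only regions wider than 150 bp (added after seeing the data, 3, and 46.1% of all genes), and members with a larger cover were 2 (36.8% of all genes). Under a reciprocal overlap of 50%, 4 regions of 25 °C and 4 of 16 °C were shared (19.2% and 20.1% of all nuclear regions). The change of PTB2 ran from 15 to 36.4 percentage points, of PTB3 from 0.6 to 11.004 and of GRP7 from -21.0 to -8.62 over 7 alternatives each. PTB1 ran up to 31 in the first 1000 bp, above PTB2 there, and was below PTB3 without regions narrower than 100 bp (7.22 against 8.20), with only regions wider than 150 bp (7.54) and above the median −log10 p. GRP8 had no change (0) without regions narrower than 100 bp, with the regions above the median −log10 p, with the stricter calling level at 25 °C and with only regions wider than 150 bp. Without replicates or depths, counting error could not be set.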

Other observations

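Around the members, within 1000 bp of the gene ends, GRP7 had a region at -453 to -263 bp at 25 °C, 190 bp wide with a height of 431, over the annotated tRNA gene AT2G21670, and a different one at -683 to -583 bp at 16 °C, 100 bp wide with a height of 258. Both lay upstream of the gene start, and the 25 °C one was taller than any region inside GRP7. GRP8 had none in its flanks at either temperature. PTB2 ends beside AT5G53170, whose own end held a region of 1020 bp with a height of 926 at 25 °C and of 1650 bp with a height of 823 at 16 °C. These regions did not reach the body of PTB2, which held no region in its 3′ UTR. PTB1 had a region of 190 bp in AT3G01160 at 25 °C and another of 90 bp at -385 to -295 bp at 16 °C.

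Among the groups of the hnRNP-like list, the 5 KH-domain genes had a median cover of 52.3% at 25 °C and 26.6% at 16 °C, and 4 of them changed by at least 10 percentage points upward, as did 24.2% of all genes. The 8 glycine-rich genes, the group most like GRP7 and GRP8, had 43.8% at 25 °C and 31.1% at 16 °C, with 4 such changes. The 3 Q-type genes had 50.3% and 30.4%, with 2, and the 2 F/H-type genes had 45.01% and 32.24%, with 1. The 4 UBP1-associated genes had 55.4% at 25 °C and 47.1% at 16 °C with 1 such change. The 10 oligouridylate-binding genes had 49.1% at 25 °C and 46.7% at 16 °C, also with 1. The 9 A/B-type genes had 40.8% and 32.7%, with 2. All 41 genes were covered over at least 17.4% at both temperatures, a level that GRP8 did not reach at either and GRP7 reached at 16 °C alone. GRP7 and GRP8 are shorter than every gene of that list. A region wider than 1000 bp lay over 20 of the 41 at 25 °C (11.1% of all genes) and 7 at 16 °C (4.22% of all genes). Among the members one lay over PTB2 and PTB3, at 25 °C alone. The list is longer in median length than all genes (3247 against 2078 bp), and these shares were not matched for length.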
